A study of Mus musculus with 9 samples.

Results

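The 10 antioxidant enzymes described here are the superoxide dismutases Sod1, Sod2 and Sod3, the peroxide-removing enzymes Cat, Gpx1 and Gpx3, the glutathione-synthesis subunits Gclc and Gclm, the haem oxygenase Hmox1 and the thioredoxin reductase Txnrd1. They were chosen by name. Each probe set that the platform annotation pairs with 1 of these genes alone was taken, which gave 23 of the 45037 probe sets tested and 10 of 18193 genes, and the probe set with the highest mean over all 9 arrays served as a gene's main probe set. Sod1 had 5 probe sets, Sod2 had 4, Txnrd1 had 3, and Gpx1, Gpx3 and Hmox1 had 1 each. No value was used to choose the genes.

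RNA came from the aortas of 9 male mice, 1 Affymetrix MOE430v2 array per sample. A total of 5 arrays were labelled BMAL+/+ (F01, F04, F07, F09 and F10) and 4 were labelled BMAL-/- (F02, F03, F05 and F08), meaning mice with or without a working Arntl, the gene of the clock transcription factor BMAL1. Both groups were of a line only partially backcrossed onto C57Bl/6J, were kept for at least 2 weeks in cycles of 12 h light and 12 h dark, and then spent at least 30 h in constant darkness before the aorta was taken at ZT14. Age is not given in the labels, and the source name of F01 says BMAL-/- where its title and strain say BMAL+/+. The comparison addresses which of these enzymes differ in the aorta at this time of day when BMAL1 is missing. All values are deposited log2 expression, so that a difference of 1 is a 2-fold difference, and every difference below is BMAL-/- minus BMAL+/+.

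Superoxide dismutases turn superoxide into hydrogen peroxide, each in its own place: Sod1 mainly in the cytosol, Sod2 in the mitochondrial matrix and Sod3 outside the cell, where it binds to the vessel wall. Catalase in peroxisomes and the selenium-containing glutathione peroxidases Gpx1 (inside cells) and Gpx3 (secreted into plasma) then remove the peroxide, the peroxidases at the expense of glutathione. Several of these genes, among them Gclc, Gclm, Hmox1 and Txnrd1, are known targets of the transcription factor NRF2 (Nfe2l2), which binds antioxidant response elements, whereas BMAL1 with its partner binds E-boxes.

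Promoters are shown for Sod1, Sod2 and Txnrd1, whose main probe sets were higher on the same arrays, and for Gclm, which did not follow them. Each line gives the 250 bases before the RefSeq transcript start on GRCm38.p6, 5′ to 3′ on the strand of the gene, with matches to the antioxidant response element core TGACNNNGC, searched on both strands, in capitals.
Sod1, chr16:90220512-90220761, plus strand: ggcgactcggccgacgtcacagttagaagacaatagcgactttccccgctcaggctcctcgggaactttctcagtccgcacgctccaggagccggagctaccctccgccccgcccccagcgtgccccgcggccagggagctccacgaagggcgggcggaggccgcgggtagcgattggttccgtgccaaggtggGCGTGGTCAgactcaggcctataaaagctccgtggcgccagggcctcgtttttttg
Sod2, chr17:13007589-13007838, plus strand: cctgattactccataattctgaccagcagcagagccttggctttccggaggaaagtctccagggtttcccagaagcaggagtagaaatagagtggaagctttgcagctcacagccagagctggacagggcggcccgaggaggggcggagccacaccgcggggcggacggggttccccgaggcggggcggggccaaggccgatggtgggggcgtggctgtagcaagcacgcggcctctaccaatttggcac
Txnrd1, chr10:82858956-82859205, plus strand: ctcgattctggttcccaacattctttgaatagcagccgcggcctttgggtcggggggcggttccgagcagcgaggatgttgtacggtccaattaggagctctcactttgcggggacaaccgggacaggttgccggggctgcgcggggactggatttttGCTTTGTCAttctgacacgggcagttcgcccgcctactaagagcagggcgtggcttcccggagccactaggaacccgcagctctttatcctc
Gclm, chr3:122245307-122245556, plus strand: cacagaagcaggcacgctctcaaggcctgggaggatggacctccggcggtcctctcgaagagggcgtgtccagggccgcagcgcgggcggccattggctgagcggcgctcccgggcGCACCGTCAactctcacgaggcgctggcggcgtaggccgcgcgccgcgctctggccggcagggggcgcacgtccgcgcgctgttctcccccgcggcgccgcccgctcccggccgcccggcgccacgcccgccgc
The core was found in 3 of the 9 promoter windows of these enzymes, those of Sod1, Gclm and 1 of 3 starts of Txnrd1, and in 10.2% of all 32851 windows. Each match was on the reverse strand, as GCGTGGTCA in Sod1, GCTTTGTCA in Txnrd1 and GCACCGTCA in Gclm. The E-box CACGTG was in none of the 9 windows and in 6.02% of all windows. These are matches of letters in 250 bases and say nothing of binding. Sod3, Gclc and Hmox1 had no entry in the promoter table.

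Facts of the arrays bear on every comparison below. At the clock genes Arntl, Npas2 and Nr1d2, the array labelled BMAL+/+ F04 read with the BMAL-/- arrays and the array labelled BMAL-/- F05 with the BMAL+/+ arrays. The Arntl probe set, for instance, lay between 5.87 and 6.67 on F02, F03, F08 and F04 and between 2.74 and 2.82 on the remaining 5 arrays, so that the targeted gene read higher on most arrays labelled BMAL-/-. Which exons it covers was not analysed here, and a probe set outside the deletion checks no label. Results are therefore given for all 9 arrays as labelled and for the 7 arrays without F04 and F05. The arrays also differed in the gap between control probe sets at the 3′ and the 5′ end of Actb and Gapdh, a gap that widens when the 5′ ends of transcripts are lost. Averaged over both genes, the 3′ minus 5′ difference was 3.77 on F02, 3.54 on F03 and 3.46 on F04, then 1.99 on F01 and 1.50 on F05, and 0.93 on F08, 0.85 on F07, 0.76 on F09 and 0.63 on F10. Of the 3 arrays with wide gaps, F02 and F03 were labelled BMAL-/-, and F04 was labelled BMAL+/+ but read with BMAL-/- at the clock genes. In the 7 arrays only BMAL-/- arrays had wide gaps, and the widest gap of a BMAL+/+ array was 1.99 on F01. Gap and genotype can hardly be told apart there, although F08, also BMAL-/-, had a gap of 0.93. Marker lists showed smooth muscle (8 genes), fibroblast and fat transcripts on all arrays, and skeletal muscle (list mean 4.27 to 11.56 in BMAL+/+ and 7.56 to 11.61 in BMAL-/-) and cardiac muscle (5.84 to 10.31 and 5.14 to 9.51) that varied widely within both groups. In RNA of whole tissue, fewer cells of a type and less RNA per cell cannot be told apart.

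None of the 10 enzymes differed between the genotypes past the threshold. In limma, 0 of 10 had an adjusted p under 0.05 with the 9 arrays as labelled, where 0% of all probe sets did, and 0 of 10 without F04 and F05, where 0.00888% did. With the 9 arrays, 0 of the 10 main probe sets reached even an unadjusted p under 0.05, against 7.25% of the main probe sets of all genes (3 higher and 1 lower did with array weights, and 2 higher and 1 lower without F04). Without F04 and F05, 2 of 10 did, Sod2 and Txnrd1, both higher in BMAL-/-, against 18.2% of all genes that were higher at that level and 8.06% among genes at or above the median brightness. In both comparisons the same 4 enzymes had a difference above 0 (Sod1, Sod2, Cat and Txnrd1) and the other 6 one below 0, where a difference below 0 was found in 33.6% of all genes and 47.5% of genes at or above the median brightness, as all 10 main probe sets were, with 9 arrays, and in 31.9% and 45.8% with 7. Their median difference was -0.17 with 9 arrays and -0.23 with 7, where the median over the main probe sets of all genes was 0.03 and 0.04.

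**Figure D1:**
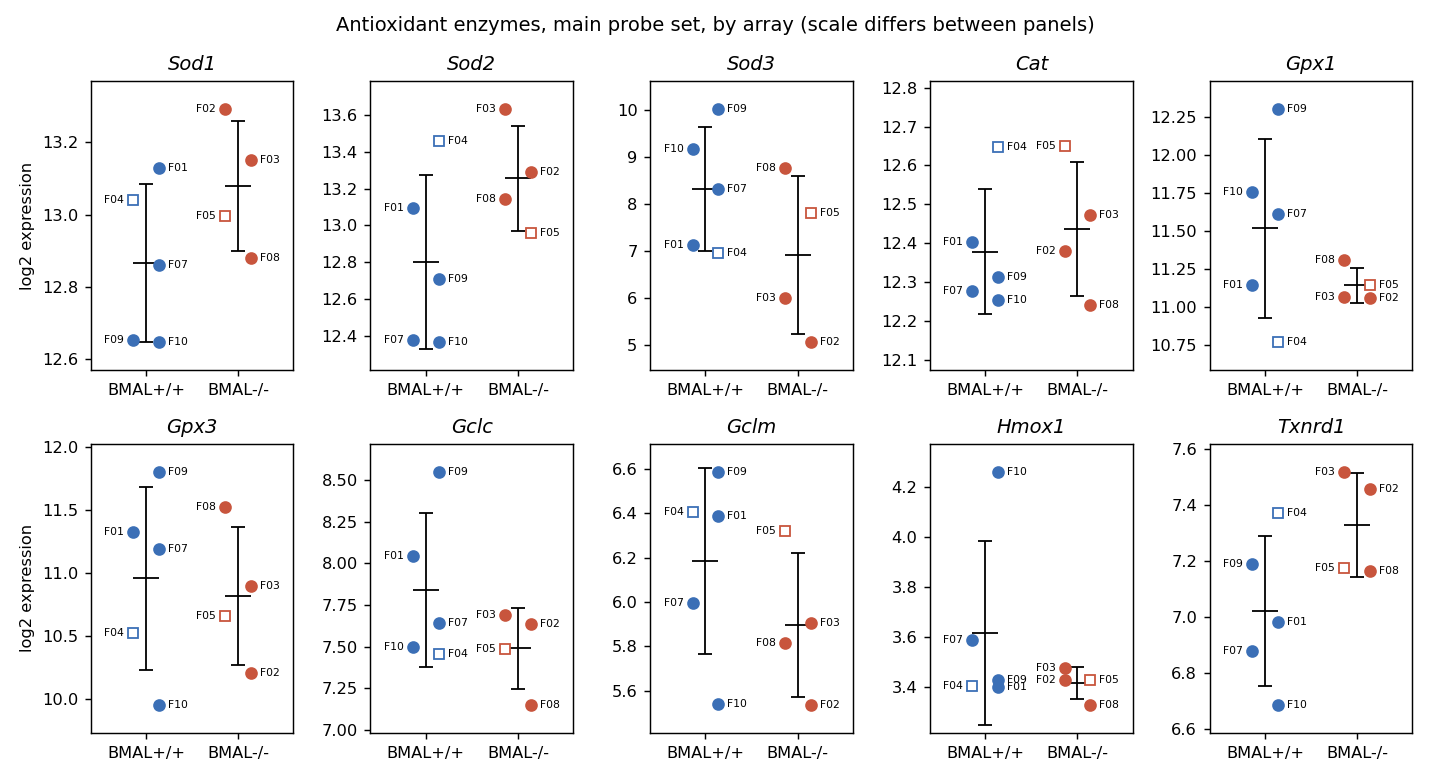
Log2 expression of the main probe set of each enzyme (vertical axis, scale differs between panels) on the 5 BMAL+/+ and 4 BMAL-/- arrays; the bars are mean ± SD, and open squares mark F04 and F05. The groups overlap for every enzyme, and Sod3 spans the widest range, from 5.07 on F02 to 10.03 on F09.

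Sod1, the copper-zinc dismutase of the cytosol, was slightly higher in BMAL-/- on its bright probe sets. Its main probe set read 13.13, 13.04, 12.86, 12.65 and 12.65 on the BMAL+/+ arrays F01, F04, F07, F09 and F10, and 13.29, 13.15, 13.00 and 12.88 on the BMAL-/- arrays F02, F03, F05 and F08. F02 and F03 were the highest and F09 and F10 the lowest, and the groups overlapped. The means were 12.87 ± 0.22 (SD, n = 5) and 13.08 ± 0.18 (SD, n = 4), a difference of 0.21 ± 0.14 (SE) with a 95% interval from -0.10 to 0.53 and an adjusted p of 0.401. The next brightest probe set read 12.48, 12.41, 12.32, 12.21 and 12.18 in BMAL+/+ and 12.51, 12.56, 12.55 and 12.60 in BMAL-/-. Here every BMAL-/- array lay above every BMAL+/+ array, F04 and F05 included, with a difference of 0.23 ± 0.09 (SE) and an adjusted p of 0.37. It was the only 1 of the 23 probe sets with no overlap between the 9 arrays, where 0.773% of all probe sets had none. In the 7 arrays the differences of these 2 probe sets were 0.29 and 0.26 (adjusted p of 0.27 and 0.208). Both medium-bright probe sets of Sod1, which read near 6, had differences of 0.15 and 0.03 with 9 arrays, and the second of these turned to -0.16 with 7.

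Sod2, the manganese dismutase of mitochondria, had the largest positive difference of the 10. Its main probe set read 13.09, 13.46, 12.38, 12.71 and 12.36 on F01, F04, F07, F09 and F10, and 13.29, 13.63, 12.96 and 13.14 on F02, F03, F05 and F08. F04 lay among the BMAL-/- arrays, and F05 was the lowest of its group. The difference was 0.45 ± 0.25 (SE), with an interval from -0.11 to 1.02 and an adjusted p of 0.37. Without F04 and F05 the groups no longer overlapped, at 12.64 ± 0.34 (SD, n = 4) and 13.35 ± 0.25 (SD, n = 3), a difference of 0.72 ± 0.22 (SE) or 1.65-fold, with an interval from 0.20 to 1.24 and an adjusted p of 0.208. It was the 1 enzyme of 10 whose main probe set did not overlap in the 7 arrays, where 14.4% of all genes were higher without overlap. The other 3 probe sets of Sod2 differed by 0.10, 0.33 and -0.03 with 9 arrays and by 0.33, 0.65 and 0.10 with 7, none past the threshold.

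Sod3, the extracellular dismutase, which vascular smooth muscle makes in quantity, varied far more than the others. It read 7.13, 6.97, 8.33, 10.03 and 9.19 on F01, F04, F07, F09 and F10, and 5.07, 6.01, 7.82 and 8.77 on F02, F03, F05 and F08. F02 and F03 were the lowest, F09 and F10 the highest, and F05 and F08 lay within the BMAL+/+ range. The range over the 9 arrays was 4.96, about 31-fold, and its SD of 1.57 was above that of 99.2% of the 500 genes nearest to it in brightness. The means were 8.33 ± 1.31 (SD, n = 5) and 6.92 ± 1.68 (SD, n = 4), a difference of -1.41 ± 0.89 (SE) with an interval from -3.44 to 0.62 and an adjusted p of 0.396. In the 7 arrays it was -2.05 ± 1.02 (SE), with an interval from -4.49 to 0.39 (adjusted p = 0.229). Its second probe set, which fell to 2.58 on F02 and F03, near the floor of the array, gave -1.41 and -2.38. Leaving out F08 as well as F04 and F05 took the difference to -3.13 with an adjusted p of 0.0378, in a comparison where 16442 of 45037 probe sets passed. Leaving out F02 took it the other way, to -1.28 (adjusted p = 0.516) in the 7 arrays and to -0.79 (adjusted p = 0.724) in the 9.

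The 8 smooth muscle markers were lower on the same arrays. Their mean was 9.97 on F02, 9.77 on F03 and 10.37 on F04, against 11.05 to 11.54 on the other 6 arrays. All 8 had a difference below 0 as labelled, with 0 past the threshold where 47.5% of genes at or above the median brightness were below 0, and 4 were lower at an unadjusted p under 0.05 in the 7 arrays, where 6.65% of such genes were. Among the other arrays, F01, F10 and F08 had marker means of 11.05, 11.10 and 11.19 while Sod3 read 7.13, 9.19 and 8.77. Acta2, the main smooth muscle actin, read 13.99 to 14.37 on all arrays. The order was not particular to smooth muscle. Fibroblast markers were also lowest on F02, F03 and F04, with means of 8.49, 8.06 and 8.78, against 9.40 to 10.06 elsewhere. The part of smooth muscle or fibroblast content in the Sod3 values was not tested.

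The level of Sod3 followed the 3′ minus 5′ difference. From the widest gap to the narrowest (F02, F03, F04, F01, F05, F08, F07, F09 and F10), Sod3 read 5.07, 6.01, 6.97, 7.13, 7.82, 8.77, 8.33, 10.03 and 9.19. In a limma model of genotype and this gap, chosen after the values were seen, Sod3 was lower by 1.03 ± 0.17 (SE) for each log2 unit of the gap (slope -1.03, adjusted p = 0.024), where 5.14% of all probe sets had a called slope. The genotype difference of Sod3 in that model was -0.48 ± 0.43 (SE), with an interval from -1.48 to 0.52. With the 7 arrays it was 0.13, with an interval from -1.30 to 1.57. No other main probe set had a called slope. Sod2 (0.26 ± 0.07 SE, adjusted p = 0.0582), Sod1 (0.13, adjusted p = 0.0653), Txnrd1 (0.14, adjusted p = 0.0949) and Gpx1 (-0.25, adjusted p = 0.0991) had the next smallest p, and Gclc and Gclm had slopes of 0.02 and 0.01. With 9 arrays and the gap modelled, the genotype difference was 0.10 for Sod1, 0.22 for Sod2, 0.18 for Txnrd1 and -0.15 for Gpx1. Each was smaller than without the gap, while Gclc and Gclm stayed at -0.36 and -0.30. With 7 arrays the same model gave -0.0010 for Sod1 (interval from -0.35 to 0.35), 0.41 for Sod2, 0.26 for Txnrd1 and -0.25 for Gpx1. It gave -0.74 for Gclc and -0.42 for Gclm, against -0.44 and -0.37 without the gap. In the 7 arrays only BMAL-/- arrays had wide gaps, so this model cannot show whether a genotype difference remains there.

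**Figure D2:**
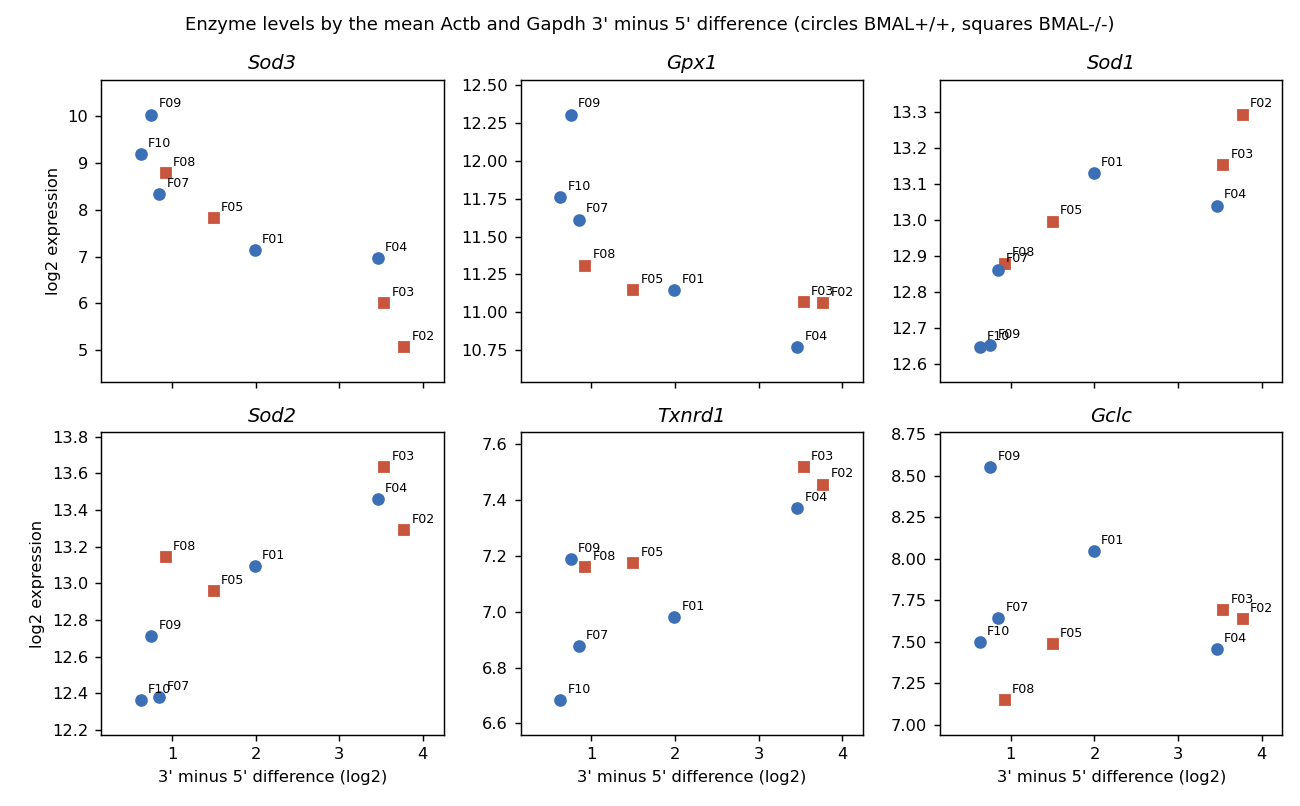
Log2 expression of 6 enzymes (vertical axes) against the mean 3′ minus 5′ difference of Actb and Gapdh (horizontal axis, log2) on each of the 9 arrays; circles are BMAL+/+ and squares BMAL-/-. Sod3 falls from 10.03 on F09 to 5.07 on F02 as the gap widens, whereas Gclc shows no such order.

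Catalase, which breaks down hydrogen peroxide in peroxisomes, was the steadiest of the 10. Its main probe set read 12.40, 12.65, 12.28, 12.31 and 12.25 on the BMAL+/+ arrays F01, F04, F07, F09 and F10, and 12.38, 12.47, 12.65 and 12.24 on F02, F03, F05 and F08. The highest values were on F05 and F04, 1 in each group, and the range was 0.41. The means were 12.38 ± 0.16 (SD, n = 5) and 12.44 ± 0.17 (SD, n = 4), a difference of 0.06 ± 0.12 (SE) with an interval from -0.21 to 0.33 (adjusted p = 0.79). In the 7 arrays it was 0.05, with an interval from -0.19 to 0.29. The other probe set of Cat had the opposite sign, at -0.29 and -0.34, and did not pass either, so that the direction for Cat is not settled.

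Gpx1, the glutathione peroxidase inside cells, had more even values in BMAL-/- than in BMAL+/+. It read 11.15, 10.77, 11.61, 12.30 and 11.76 on F01, F04, F07, F09 and F10, and 11.06, 11.07, 11.15 and 11.31 on F02, F03, F05 and F08. All 4 BMAL-/- arrays lay inside the BMAL+/+ range, between F04 and F07. The difference was -0.37 ± 0.28 (SE), with an interval from -1.01 to 0.27 and an adjusted p of 0.454. It was -0.56 ± 0.27 (SE), with an interval from -1.19 to 0.07 and an adjusted p of 0.218, without F04 and F05. Leaving out F09 alone took it to -0.18 in the 9 arrays and -0.36 in the 7, and leaving out F04 alone to -0.56. The SDs were 0.59 (n = 5) and 0.12 (n = 4), a contrast in spread that was not tested.

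Gpx3, the secreted peroxidase, which fat also makes, showed no order by genotype. It read 11.33, 10.52, 11.19, 11.81 and 9.96 on F01, F04, F07, F09 and F10, and 10.21, 10.90, 10.66 and 11.52 on F02, F03, F05 and F08. F10, labelled BMAL+/+, was the lowest of all, and F09, of the same group, the highest. The difference was -0.14 ± 0.40 (SE), with an interval from -1.05 to 0.77 (adjusted p = 0.853), and -0.19 without F04 and F05. Leaving out F09 or F02 turned its sign. The mean of the 8 fat markers was 12.42 on F09 and 12.18 on F08, the arrays highest in Gpx3, but also 12.12 on F10, and its part was not tested.

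The 2 subunits of glutamate-cysteine ligase, the enzyme that limits glutathione synthesis, were both lower in BMAL-/- without passing. Gclc, the catalytic subunit, read 8.05, 7.46, 7.64, 8.55 and 7.50 on F01, F04, F07, F09 and F10, and 7.64, 7.69, 7.49 and 7.15 on F02, F03, F05 and F08. The BMAL-/- arrays other than F08 lay within the BMAL+/+ range, and F09 stood highest. The difference was -0.35 ± 0.25 (SE), with an interval from -0.91 to 0.21 and an adjusted p of 0.434, and it was -0.44 without F04 and F05 (adjusted p = 0.327). Without F09 it was -0.17 in the 9 arrays and -0.24 in the 7, and without F08 -0.27 in the 7. The second probe set of Gclc gave -0.44 and -0.63, and on it the 7 arrays did not overlap (adjusted p = 0.208). It was the only 1 of the 23 probe sets that was lower without overlap there, where 2.59% of all probe sets were. Gclm, the modifier subunit, read 6.39, 6.41, 5.99, 6.59 and 5.54 on F01, F04, F07, F09 and F10, and 5.54, 5.91, 6.32 and 5.82 on F02, F03, F05 and F08. F05 lay with the high BMAL+/+ arrays and F10 with F02. The difference was -0.29 ± 0.24 (SE) and -0.37 ± 0.27 (SE) without F04 and F05, with adjusted p of 0.502 and 0.358. In the 9 arrays it ranged from -0.17 without F02 and -0.19 without F09 to -0.45 without F10, and in the 7 it was -0.22 without F09 and -0.57 without F10. Its other probe set gave -0.16 and -0.12.

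Hmox1, the inducible enzyme that degrades haem, was near the floor of the array on all but 1 array. It read 3.40, 3.41, 3.59, 3.43 and 4.26 on F01, F04, F07, F09 and F10, and 3.43, 3.48, 3.43 and 3.33 on F02, F03, F05 and F08. Only F10 stood apart. The difference was -0.20 ± 0.17 (SE), with an interval from -0.59 to 0.19 and an adjusted p of 0.512. Without F10 it was -0.04, and -0.06 in the 7 arrays. F10 was also the array with the highest macrophage markers (9 genes, mean 8.82, against 6.40 to 8.20 on the others) and with the highest lymphocyte markers (6 genes, mean 6.48). F02 read 5.65 in the lymphocyte markers and the other 7 arrays 2.73 to 2.95, yet F02 had Hmox1 at 3.43. The part of such cells in the F10 value was not tested.

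Txnrd1, the cytosolic reductase that keeps thioredoxin active, had a positive difference between those of Sod1 and Sod2. It read 6.98, 7.37, 6.88, 7.19 and 6.68 on F01, F04, F07, F09 and F10, and 7.46, 7.52, 7.17 and 7.16 on F02, F03, F05 and F08. F03, F02 and F04 were the highest, and these were the 3 arrays with wide 3′ minus 5′ gaps. The difference was 0.31 ± 0.17 (SE), with an interval from -0.07 to 0.69 and an adjusted p of 0.37. Without F04 and F05 it was 0.45 ± 0.17 (SE), with an interval from 0.03 to 0.86 and an adjusted p of 0.208, and F08 and F09 still overlapped. The other 2 probe sets of Txnrd1 read near 3, at the floor.

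**Figure D3:**
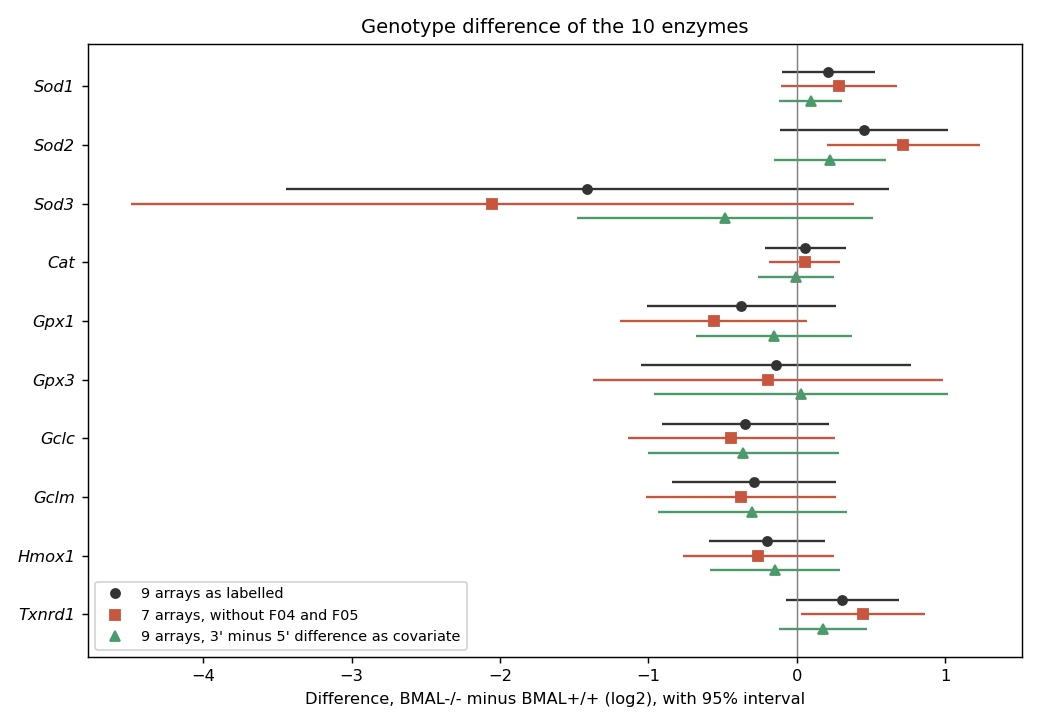
Genotype difference of each enzyme on its main probe set (horizontal axis, BMAL-/- minus BMAL+/+, log2) with 95% limma intervals for the 9 arrays as labelled, for the 7 arrays and with the 3′ minus 5′ difference as a covariate. With 7 arrays the intervals of Sod2 (0.20 to 1.24) and Txnrd1 (0.03 to 0.86) lie above 0, and no other interval drawn excludes it.

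Across the 9 arrays the enzymes fell into opposed patterns. Sod1, Sod2 and Txnrd1 went together, with Pearson r of 0.88 for Sod2 with Txnrd1, 0.77 for Sod1 with Sod2 and 0.66 for Sod1 with Txnrd1. Sod3 and Gpx1 also went together (r = 0.80) and ran against Sod1, at -0.96 for Sod3 and -0.83 for Gpx1. Gclc and Gclm, subunits of 1 enzyme, had an r of 0.56. These values describe 45 pairs over 9 arrays that share the array, its RNA quality and the 2 genotypes, and they carry no test. F09 was the highest array in 5 enzymes, Sod3, Gpx1, Gpx3, Gclc and Gclm.

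**Figure D4:**
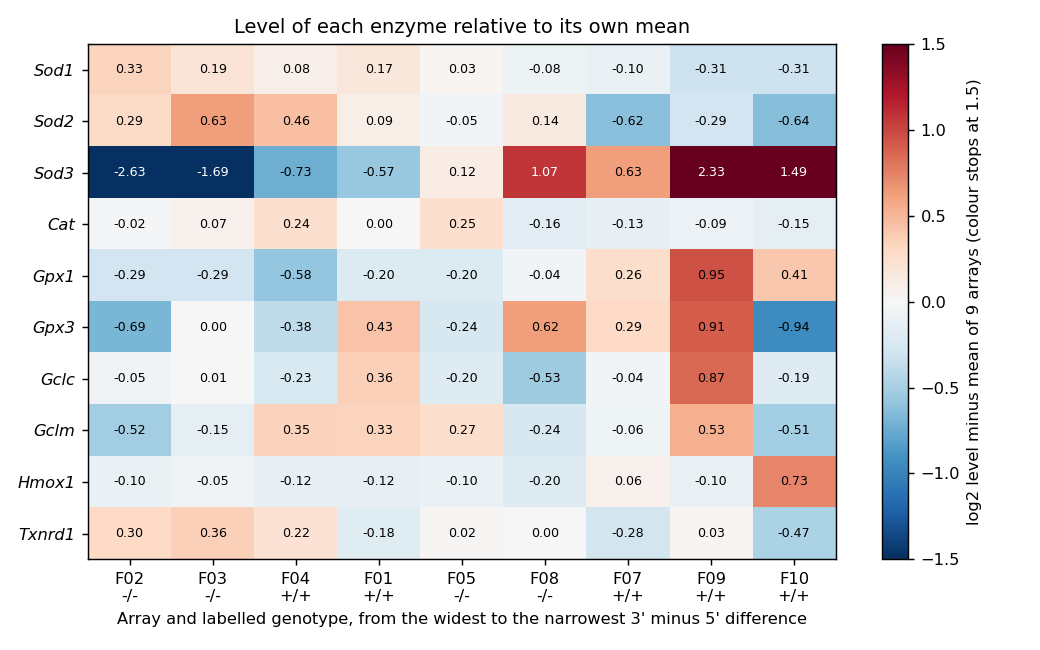
Log2 level of each enzyme minus its own mean over the 9 arrays (colour and printed value), with arrays ordered from the widest 3′ minus 5′ difference (F02) to the narrowest (F10). Sod3 and Gpx1 are low at the left and high at the right, and Sod1, Sod2 and Txnrd1 run the other way.

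The genes whose pattern was most like that of an enzyme were found by Pearson r over the 9 arrays among 11180 other genes at or above the median brightness. For Sod2 they were Atp5pb (0.99), Endog (0.98) and Ndufb11 (0.98), of which Atp5pb is a subunit of ATP synthase and Ndufb11 of respiratory complex I. Atp5pb read 13.51, 13.88, 13.15, 13.29 and 13.13 in BMAL+/+ F01, F04, F07, F09 and F10, and 13.64, 13.89, 13.50 and 13.60 in BMAL-/- F02, F03, F05 and F08, with F03 and F04 highest as for Sod2. For Sod3 they were Emcn (0.997), an endothelial sialomucin, Tmem120a (0.98) and Get3 (0.98). Emcn read 4.84 on F02 and 8.22 on F09, the arrays at both ends of Sod3. For Gpx1 they were Tie1, Tubb5 and Hprt, for Sod1 Cog7, Ddx1 and Kpna6, and for Hmox1 Pld4, Zfas1 and Klk10, of which Pld4 read 6.22 on F10 and 4.44 to 4.95 elsewhere. For Txnrd1 they were Ccr9, Mief2 and Rdh11, and for Cat Usp33, Chic1 and Caskin2. Those of Gpx3 (Map6, Khdrbs3 and Thap2), Gclc (Lrrc57, Cyp4f13 and Nlgn2) and Gclm (Cep170b, Rbms2 and Appbp2) were less close, with r of at most 0.92, 0.94 and 0.92. Emcn and Tie1 belong to the list of 8 endothelium markers, whose mean did not follow Sod3 on every array. That mean was 5.99 on F02 and 6.97 on F09, but 6.80 on F04 and 6.62 on F10, where Sod3 read 6.97 and 9.19. The part of endothelium in the Sod3 and Gpx1 values was not tested. With so few arrays and so many genes, a high r is to be found for nearly any pattern.

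Other genes of the pathway were looked at in 8 lists with 101 measured genes, of which 0 passed in limma with 9 arrays or with 7. With the 9 arrays, 3 were higher and 3 lower in BMAL-/- at an unadjusted p under 0.05. Of all genes 6.52% were higher and 0.731% lower at that level, and 1.17% and 1.16% of genes at or above the median brightness. A difference below 0 was found in 62 of 101, against 33.6% of all genes and 47.5% of the brighter ones. Without F04 and F05, 12 were higher and 20 lower at that level. That is 32 of 101, where 22.3% of all genes and 14.7% of the brighter ones were past it. By direction, 18.2% of all genes were higher and 4.13% lower, and 8.06% and 6.65% of the brighter ones. The median difference of the 101 was -0.10 with 9 arrays and -0.11 with 7.

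The glutathione S-transferases, which attach glutathione to reactive compounds, held the largest differences. Of 20 measured, 13 had a difference below 0 (median -0.23), against 33.6% of all genes and 47.5% of genes at or above the median brightness. In the 7 arrays 6 of 20 were lower at an unadjusted p under 0.05, where 4.13% of all genes and 6.65% of the brighter ones were. Gstt1 read 9.44, 7.54, 9.29, 8.79 and 9.45 on F01, F04, F07, F09 and F10, and 7.32, 7.38, 9.43 and 7.92 on F02, F03, F05 and F08. F04 lay with the low arrays and F05 with the high ones, as at the clock genes. Its difference was -0.89 as labelled and -1.70 ± 0.24 (SE) in the 7 arrays (adjusted p = 0.208). Gstt2 (-1.61 and -2.72) and Gsta3 (-1.61 and -2.70) were split in the same way, F04 reading 3.61 and 3.39 and F05 5.89 and 5.67, except that Gstt2 on F08 read 4.66. Gstm1 differed by -0.65 and -1.06. Gstm3, which read 2.93 to 3.97, went the other way, by 0.27 and 0.35.

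Of 14 glutathione peroxidases, synthesis and recycling enzymes, 10 had a difference above 0 (median 0.06), near the 66.4% of all genes that did and above the 52.5% of those at or above the median brightness. Gss, which completes glutathione synthesis, read 4.77, 5.25, 3.77, 3.45 and 3.55 on F01, F04, F07, F09 and F10, and 5.39, 5.75, 4.64 and 4.62 on F02, F03, F05 and F08, a difference of 0.94 ± 0.43 (SE, adjusted p = 0.37). Gsr, which regenerates reduced glutathione, differed by 0.47. Slc7a11 and Ggt5 had the smallest unadjusted limma p of this list as labelled, 0.0064 and 0.037. They differed by 0.11 and 0.17 as labelled and by 0.15 and 0.19 in the 7 arrays, with adjusted p of at least 0.208. Slc7a11 read only 2.66 to 2.84, near the floor. In the 7 arrays the glutaredoxins Glrx2 and Glrx5 differed by 0.63 and 0.59, and as labelled by 0.35 and 0.30. Of 11 peroxiredoxins and thioredoxins, 6 were above 0 and 5 below. Txnrd2, the mitochondrial relative of Txnrd1, differed by 0.81 ± 0.29 (SE) in the 7 arrays and by 0.31 as labelled, and Txnl1 by 0.60 and 0.42, none past the threshold (adjusted p of at least 0.208).

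Genes that supply cofactors to these enzymes were mixed. Ccs, the copper chaperone that loads Sod1, read 6.58 to 6.99 in BMAL+/+ and 6.16, 6.27, 6.33 and 6.78 in BMAL-/-, a difference of -0.36 ± 0.15 (SE, adjusted p = 0.37), while Sod1 itself was on the other side of 0. Selenop, the plasma carrier of selenium, differed by -0.23 as labelled and by -0.40 ± 0.08 (SE) in the 7 arrays. Sephs2, which makes the selenium donor of selenoproteins, differed by 0.62 and 0.85. Of the 12 genes of this list, 4 were above 0 and 8 below.

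The transcript of NRF2 was lower in BMAL-/- without passing, and NRF2 protein was not measured. Nfe2l2 read 9.43, 9.17, 9.37, 9.64 and 9.61 on F01, F04, F07, F09 and F10, and 8.52, 9.08, 9.59 and 9.08 on F02, F03, F05 and F08, with F04 lowest and F05 highest among arrays of their label. The difference was -0.38 ± 0.21 (SE) as labelled and -0.62 ± 0.19 (SE) without F04 and F05, with adjusted p of 0.371 and 0.208. Of 9 genes in this list 6 were below 0, among them Mafg (-0.80), a partner of NRF2, and Sqstm1 (-0.88). The 17 other NRF2 target genes had a median of -0.02, with 8 above 0 and 9 below. Ephx1, an epoxide hydrolase, read 9.51, 8.03, 9.38, 9.51 and 9.72 on F01, F04, F07, F09 and F10, and 7.51, 7.90, 9.57 and 8.06 on F02, F03, F05 and F08, again with F04 and F05 on the side of the other label. Nqo1, an NRF2 target reductase, differed by 0.37, and Pgd, of the pentose phosphate pathway, by 0.94 in the 7 arrays and by 0.40 as labelled.

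The metallothioneins and paraoxonases, and the sources of superoxide and peroxide, were mostly lower. Mt1, a metal-binding scavenger, differed by -0.92 as labelled and by -1.60 ± 0.28 (SE) in the 7 arrays, and 5 of 6 genes of that list were below 0 in both (median -0.61 and -0.93). In the 7 arrays 3 of the 6 were lower at an unadjusted p under 0.05, against 4.13% of all genes and 6.65% of those at or above the median brightness. All 12 measured genes of oxidase and oxidant-producing enzymes had a difference below 0 as labelled (median -0.39) and 11 of 12 in the 7 arrays, where 31.9% of all genes and 45.8% of those at or above the median brightness were below 0. Nox4, the oxidase of smooth muscle, read 9.96, 8.26, 9.24, 8.89 and 9.36 on F01, F04, F07, F09 and F10, and 7.50, 7.91, 9.46 and 9.16 on F02, F03, F05 and F08, lowest on F02, F03 and F04, the arrays with wide 3′ minus 5′ gaps. Its differences were -0.63 and -1.17, and those of Xdh, xanthine dehydrogenase, -0.81 and -1.29, with adjusted p of at least 0.208. All 9 macrophage markers were also below 0 in both comparisons (median -0.68 as labelled and -0.97 in the 7 arrays). The mean of the 12 genes was highest on F10 (7.08) and lowest on F03 (5.51), as was that of the macrophage markers (8.82 and 6.40). The part of macrophages in these values was not tested.

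**Figure D5:**
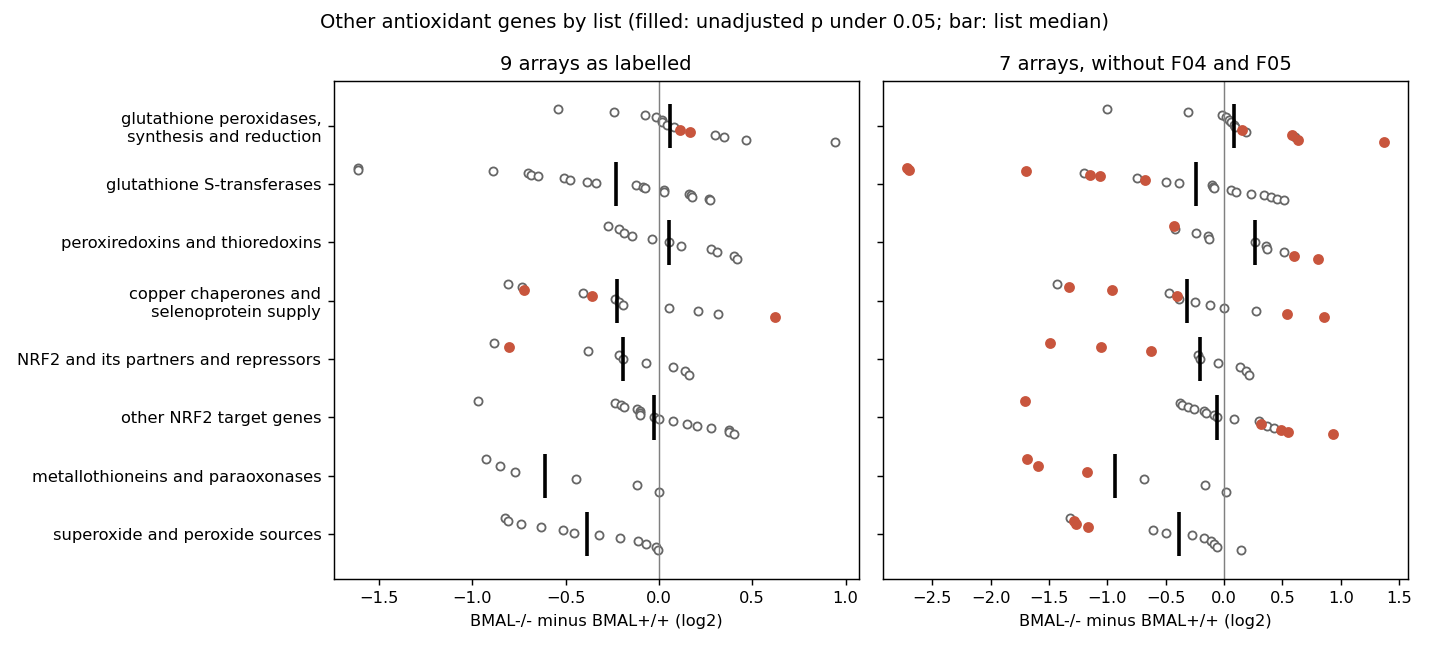
Genotype difference of 101 other antioxidant genes by list (horizontal axes, BMAL-/- minus BMAL+/+, log2, scale differs between panels) with 9 arrays and with 7; each point is a gene, filled points have an unadjusted p under 0.05 and bars are list medians. Glutathione S-transferases reach -2.72 with 7 arrays, and no gene passed the adjusted threshold.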

How the data were processed

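The authors deposited log2 expression values for 45101 probe sets on 9 arrays. Per the submitters' processing notes GCRMA and MAS5 were used, with no role or version, and background, normalization and summary settings are not given in the sources used here. Array medians were 3.13 to 3.24. Their number of 9 limits precision. Tests left out 64 control probe sets, of which those of Actb and Gapdh gave the 3′ minus 5′ difference. Symbols came from the platform annotation, updated by gene identifier to RefSeq names (GRCm38.p6), which also gave the promoters.

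Genotype differences were fitted on all 45037 probe sets with limma 3.58.1 in R 4.3.3 (eBayes with a trend), two-sided, with Benjamini-Hochberg adjustment over all of them and a threshold of 0.05, and was tested on simulated data. Values were not renormalized or filtered. The enzymes were named, and the lists, alternatives and naming rule fixed, with earlier results of these data known. The rule names all 10 enzymes, up to 4 genes with the smallest p of each list in each comparison and the 3 genes most like each enzyme. Not every list gene it names is described. The 7-array comparison drops F04 and F05, picked by clock gene values. Per the design text the samples are biological replicates. Plots were drawn with matplotlib 3.10.9.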

Additional observations from a re-analysis of the deposited data

Results flagged for a closer look

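In 46 groups of values (23 probe sets, 2 genotypes), 3 had 1 array far from the others by Dixon's criterion, which chance meets in about 1 of 20 groups. Hmox1 read 4.26 on the BMAL+/+ array F10, against 3.40 to 3.59 on the other 4. On a dimmer probe set of Sod2, the BMAL-/- array F03 read 9.49, against 8.56 to 8.70 on the other 3, and F03 was also the highest array on the main probe set. On a probe set of Txnrd1 at the floor, the BMAL-/- array F08 read 3.36, against 3.21 to 3.22.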

How the results depend on the processing

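With 9 arrays, 0 of the 10 enzymes passed under any alternative run, with 9 tested at or above the upper quartile of brightness. An alternative that dropped probe sets with names ending in _x_at, _s_at or _a_at tested 6. It removed the main probe sets of Sod1, Sod2, Cat and Txnrd1. With 7 arrays, 3 passed with array weights, Sod2 (0.98), Sod3 (-2.75) and Txnrd1 (0.60), where 15448 probe sets passed, and leaving out 1 array at a time gave 0 to 1 passing enzymes, the 1 being Sod3 without F08. With 9 arrays the sign of Cat turned with the mean of its probe sets (-0.12), with the 3′ minus 5′ covariate (-0.0043) and in the range over left-out arrays (-0.0139 to 0.12), that of Gpx3 with F01 in BMAL-/- (0.0548), with the covariate (0.0290) and over left-out arrays (-0.39 to 0.0729), and that of Gclm with array weights (0.21). With 7 arrays Cat turned with the mean of its probe sets (-0.15), after centring (-0.0024), with the covariate (-0.0688) and over left-out arrays (-0.0010 to 0.12), Gpx3 with the covariate (0.18) and over left-out arrays (-0.57 to 0.14), and Sod1 (-0.0010) and Sod3 (0.13) with the covariate, an alternative chosen after seeing the data. The cause was not tested. Sod2, Gpx1, Gclc, Hmox1 and Txnrd1 kept their sign in both comparisons under every alternative that tested them. At an unadjusted p under 0.05 with 7 arrays, 2 enzymes were higher and 0 lower. The count of higher enzymes went to 3 with array weights and to 1 after centring or without F02, F07 or F10. It was 0 without F03, with the covariate or with the mean of probe sets. Dropping probe sets by name ending also gave 0, but this removed both counted enzymes, Sod2 and Txnrd1, and so tested neither. The count of lower ones went to 2 without F01 (Sod3 and Gpx1) and to 1 with array weights or without F08 (Sod3) and without F10 (Gclm). Over all probe sets that split was 3565 higher and 338 lower with 9 arrays, 1138 and 680 after quantile normalization and 582 and 507 after centring, and with 7 arrays 9012 and 1668, 3480 and 2161, and 2155 and 2052. The 101 pathway genes had 0 passing under the few alternatives counted for them: quantile normalization, centring, and leaving out F04 and F05. Array weights and single left-out arrays, under which enzymes passed with 7 arrays, were not counted for them. Hmox1 and the dim probe sets of Sod1 and Txnrd1 lay near the floor, where small differences are not resolved. The second probe set of Sod3 was low only on some arrays, at 2.58 on F02 and F03 and 3.08 on F04, and reached 7.70 on F09. No paired analysis was possible because the groups share no replicate numbers.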
